A study of Mus musculus with 3 samples.

Results

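The broad peaks present in both libraries are 449 stretches of the mouse genome that the authors' caller reported as enriched for 5-methylcytosine over at least 2000 bp in cardiomyocyte DNA from Sham mice and again, at an overlapping place, over at least 2000 bp in DNA from mice with pressure overload. They were selected on peak width: a Sham peak on chromosomes 1 to 19 was taken when its width was 2000 bp or more and it overlapped, by at least 1 bp, a TAC peak of 2000 bp or more. They make up 449 of 134294 Sham peaks on these chromosomes and 449 of the 1338 Sham peaks of that width. Each was paired with the TAC peak that it overlapped most, which gave 449 different TAC peaks among the 1010 broad ones. Because the widths in both libraries chose these peaks, widths are given below as a description, without any test.

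The study profiled 5-methylcytosine in cardiomyocytes, the contracting muscle cells of the heart, from C57Bl6/J mice that were male and 8 weeks old. The Sham group and the TAC group, with pressure overload for 1 week per the series title, have 1 library each, and the remaining sample, Input, is DNA that was not enriched with the antibody. The sources used here do not say whether a library pools several mice. With 1 library per group no difference between Sham and TAC could be tested against biological or technical spread, so the treatment and the library cannot be told apart.

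Methylation of cytosine, mostly where it is followed by guanine (a CpG), is a stable mark that is copied at cell division and is associated with silent promoters, repeats, imprinted alleles and germline genes, and also with the bodies of transcribed genes. In immunoprecipitation of methylated DNA the antibody pulls down fragments, so enrichment follows both the methylation level and the density of CpG, and CpG-rich stretches that are methylated stand out most. A broad peak is a run of neighbouring enriched places that the caller joined into 1 region, and its width says nothing of the level at any single cytosine.

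Of the 430 shared broad peaks on chromosomes with annotated start windows, 17 reached into the promoter window of a gene, taken here as the 250 bases before an annotated start in RefSeq (build GRCm38.p6), and together they touched 21 windows of 17 genes. The 5 windows below lie wholly under the Sham peak and, apart from Sycp3, wholly under the TAC peak. They are shown because they span the range of CpG content found under the shared broad peaks. Sequences are from RefSeq, 5′ to 3′ on the gene's strand, in lower case with every CpG in capitals. The window of 4933428G20Rik, a gene of unassigned function on the minus strand at chr11:97500341-97500590, held 38 CpG. That of Gnas, the imprinted locus of the stimulatory G protein alpha subunit, lies on the plus strand at chr2:174327518-174327767 and held 22 CpG. Kif2b, a kinesin that depolymerises microtubules (minus strand, chr11:91577556-91577805), and Sycp3, a component of the synaptonemal complex of meiosis (plus strand, chr10:88459337-88459586), held 12 CpG each. Islr, which encodes a secreted leucine-rich repeat protein of the immunoglobulin superfamily (minus strand, chr9:58158555-58158804), held 1 CpG and is the contrast.
4933428G20Rik: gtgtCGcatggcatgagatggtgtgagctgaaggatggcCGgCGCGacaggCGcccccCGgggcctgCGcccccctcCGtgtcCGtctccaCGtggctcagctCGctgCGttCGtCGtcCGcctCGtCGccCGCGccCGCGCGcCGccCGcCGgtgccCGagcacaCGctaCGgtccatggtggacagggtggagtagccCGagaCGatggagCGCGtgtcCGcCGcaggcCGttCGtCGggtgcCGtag
Gnas: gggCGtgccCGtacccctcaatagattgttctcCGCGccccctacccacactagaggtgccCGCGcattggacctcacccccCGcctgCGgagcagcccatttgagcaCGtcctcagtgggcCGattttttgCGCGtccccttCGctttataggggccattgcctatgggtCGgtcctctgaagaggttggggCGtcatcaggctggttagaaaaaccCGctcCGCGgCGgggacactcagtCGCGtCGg
Kif2b: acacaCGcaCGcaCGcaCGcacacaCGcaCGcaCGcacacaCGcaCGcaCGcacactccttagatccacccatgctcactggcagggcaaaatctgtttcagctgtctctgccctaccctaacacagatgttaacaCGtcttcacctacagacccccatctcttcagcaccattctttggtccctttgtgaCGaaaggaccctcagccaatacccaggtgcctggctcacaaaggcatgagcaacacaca
Sycp3: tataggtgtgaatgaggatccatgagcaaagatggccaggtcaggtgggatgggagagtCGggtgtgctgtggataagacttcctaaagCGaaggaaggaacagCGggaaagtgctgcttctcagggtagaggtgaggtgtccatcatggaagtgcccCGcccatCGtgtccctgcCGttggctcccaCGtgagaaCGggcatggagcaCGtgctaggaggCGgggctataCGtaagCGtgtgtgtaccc
Islr: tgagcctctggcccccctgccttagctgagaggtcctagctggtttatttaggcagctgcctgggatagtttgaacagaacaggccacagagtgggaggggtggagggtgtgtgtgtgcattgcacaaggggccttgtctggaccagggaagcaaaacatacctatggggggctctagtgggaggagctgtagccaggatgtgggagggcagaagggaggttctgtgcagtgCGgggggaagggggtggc

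The run of capitals in the 4933428G20Rik window and the near absence of capitals in the Islr window show that shared broad peaks cover promoters of very different CpG density. The 21 windows had a median of 9 CpG, from 1 to 38, and 9 of them (42.9%) held 10 or more. Windows under narrower Sham peaks that also overlapped a TAC peak had a median of 5 CpG, and 184 of 969 held 10 or more. A window counts here when any part of it lies under a peak. Of the 21 windows 17 lay wholly under the peak, against 377 of the 969, so the sets differ in coverage too. The 29 windows under the other broad Sham peaks had a median of 6. Among 29263 windows without a peak in either library the median was 6 and 39.7% held 10 or more. The 21 windows are few and not independent, since Gnas, Gm32605, Gm32915 and Gm40237 each give more than 1.

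**Figure D1:**
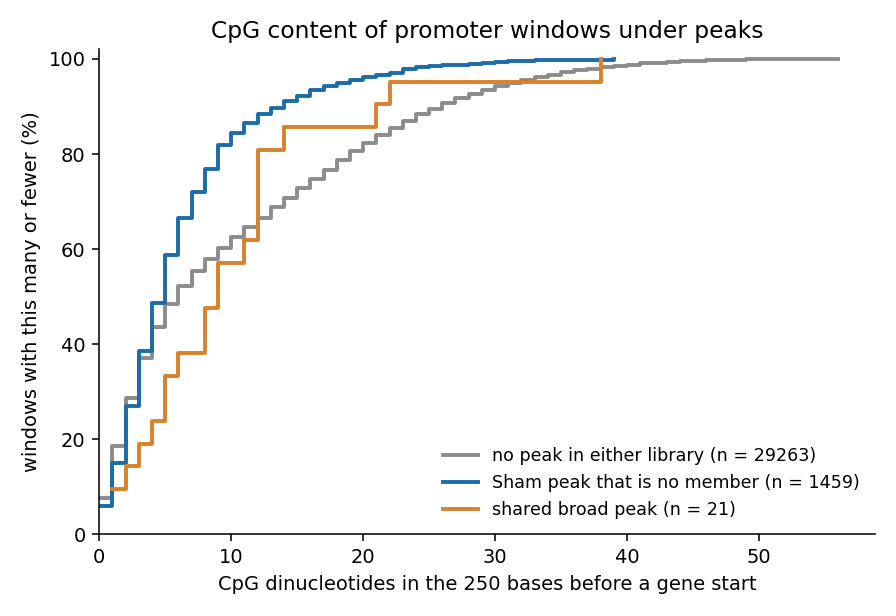
Cumulative share of promoter windows (y axis, %) by number of CpG in the 250 bases before a gene start (x axis), for windows under shared broad peaks, under other Sham peaks and without a peak in either library. A window counts as under a peak when any part of it is. The line for shared broad peaks runs to the right of that for other Sham peaks, with medians of 9 CpG for shared broad peaks and 6 for windows without a peak.

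The peaks at these starts were 2003 to 4174 bp wide in Sham. The peak over 4933428G20Rik, which has its midpoint in the neighbouring gene Arhgap23, was 2503 bp wide in Sham and 2528 bp in TAC. The peak over Gnas was 2252 bp in Sham and 2775 bp in TAC, the peak over Sycp3 was 2439 bp and 2280 bp, and the peak over Islr was 2664 bp and 2677 bp. The Kif2b peak differed more, with 3621 bp in Sham against 2257 bp in TAC. Further windows touched by shared broad peaks were those of Abca4, a lipid transporter of photoreceptors (12 CpG), Ttbk1, a kinase of tau (9 CpG), Spink2, a protease inhibitor of the male germline (8 CpG, with the start itself outside both peaks), and Ptgir, the prostacyclin receptor (5 CpG). The remaining windows belonged to non-coding genes, among them Gm32605 (14 CpG; peak of 2868 bp in Sham and 2093 bp in TAC) and Gm32915 (12 CpG), whose peak of 3046 bp in Sham and 2621 bp in TAC also overlaps Hand1, a transcription factor of heart development. The hexamer TGCCGC, which ZFP57 recognises at imprinted control regions, or its reverse complement GCGGCA was in 0 of the 21 windows and in 8.69% of all 31365 windows. It was in 5.54% of windows under any Sham peak and in 1 of the 29 under the other broad Sham peaks. With 21 windows, no lack of the hexamer is read from this.

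Across all 449 loci the widths in both libraries were close, which the rule favours, since it asks for 2000 bp or more in each. The median width was 2503 bp in Sham (2000 to 11942 bp) and 2416 bp in TAC, and the median difference, TAC minus Sham, was -42 bp (95% interval -74 to -18 bp). The median ratio of TAC to Sham width was 0.984, with 263 peaks wider in Sham and 186 wider in TAC. All intervals given here are exact, treat loci as independent and cover counting error only, not the spread between libraries. Over all 88838 shared Sham peaks of any width the medians were 626 bp and 627 bp, and the median difference was 0 bp. Among 4393 pairs that were 1000 bp or more but under 2000 bp in both libraries it was -1 bp (-7 to 4 bp). With a limit of 2000 bp on 1 library alone, the median difference followed that library. It was -1044 bp (-1128 to -958 bp) for 1297 shared Sham peaks of that width. For 986 shared TAC peaks of that width it was +508 bp (337 to 649 bp).

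**Figure D2:**
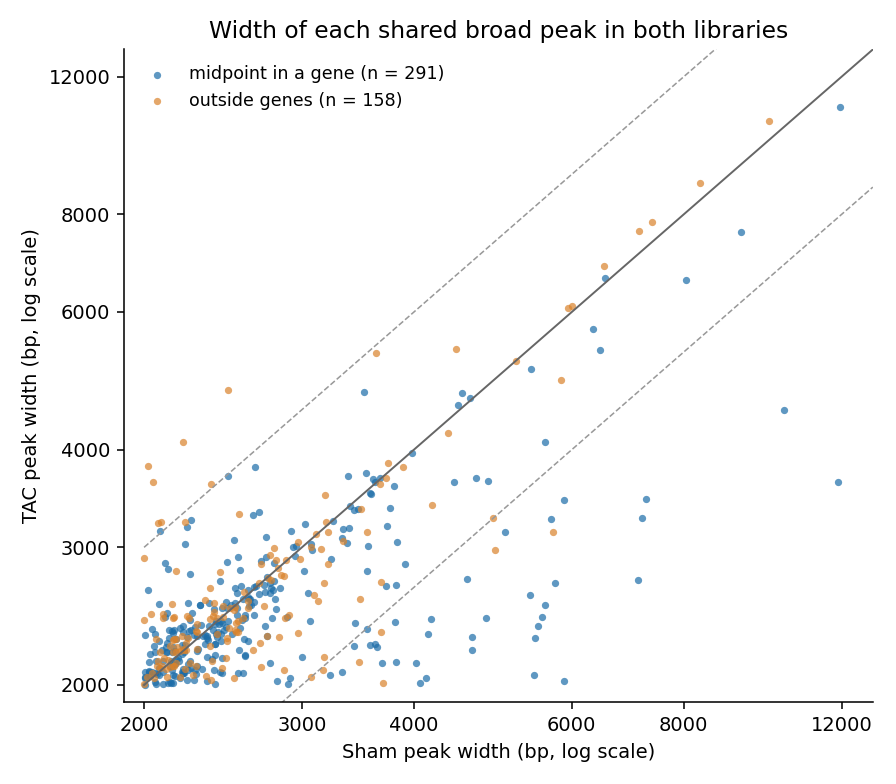
Width of each of the 449 shared broad peaks in Sham (x axis, bp, log scale) and in TAC (y axis, bp, log scale), with peaks whose midpoint lies in a gene and peaks outside genes in separate colours, the solid line marking equal width and the dashed lines a ratio of 1.5. Most points lie near the line, and the points far from it are mainly wide Sham peaks in genes that were narrower in TAC.

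A small group of the 449 loci differed more in width, most of them with the wider peak in Sham. The Sham peak was at least 1.5 times as wide as the TAC peak at 42 of 449 loci (9.35%), where 7.79% of all shared Sham peaks met the same limit. The TAC peak was at least 1.5 times as wide at 8 loci (1.78%), where 8.94% of all shared Sham peaks did. The rule on width limits both counts, since a ratio of 1.5 needs a width of 3000 bp or more in the wider library, and nothing is read from them against the background. By construction, all 42 lie among the 125 loci with a Sham peak of 3000 bp or more. At those 125, 0 were past the limit toward TAC. All 8 likewise lie among the 95 loci with a TAC peak of that width, where 8 were past it toward Sham.

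The widest Sham peak lay over Zfp777, a zinc finger gene of the family that carries a repressor domain, at chr6:48018283-48030224. It was 11942 bp in Sham and 10987 bp in TAC. The second widest was over Pdlim7, which encodes a PDZ and LIM domain protein of the actin cytoskeleton, at chr13:55497762-55509649. There the Sham peak of 11888 bp met 3 TAC peaks, the largest of 3638 bp, so the paired widths differed 3.27-fold, more than at any other locus. The hairpin of Mir6945, at chr13:55507625-55507692, lies inside the Sham peak and under another of the TAC peaks, which is 3071 bp wide.

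The next in width split in the same way or kept their size. Over Synrg, a partner of the clathrin adaptor AP1, 10338 bp in Sham (chr11:84029687-84040024) met 3 TAC peaks, the paired one of 4502 bp. Over Bcr the widths were 9272 bp and 7586 bp (chr10:75138069-75147340). Over Kif16b, a kinesin that moves early endosomes, neighbouring peaks were 8038 bp and 7192 bp in Sham and 6589 bp and 3271 bp in TAC. Over Ccdc88c, a binding partner of Dishevelled in Wnt signalling, 7267 bp in Sham met 3 TAC peaks, the paired one of 3459 bp.

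The 3 among the 10 widest that lay outside genes by their midpoint were all slightly wider in TAC. At chr15:19708277-19718234, overlapping the end of the non-coding gene Gm35969 with the cadherin gene Cdh10 as the nearest protein-coding one, the peak was 9958 bp in Sham and 10531 bp in TAC. At chr3:43937416-43945753, where the nearest gene, Gm29739, is 172662 bp away, it was 8338 bp and 8771 bp. At chr7:44475783-44483147, 1370 bp from the gene 5430431A17Rik, it was 7365 bp and 7832 bp. Each of these 3 peaks overlapped 1 TAC peak, as did Zfp777 and the pair over Dnah12, an axonemal dynein heavy chain (6529 bp against 6630 bp, and 3980 bp against 3960 bp).

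**Figure D3:**
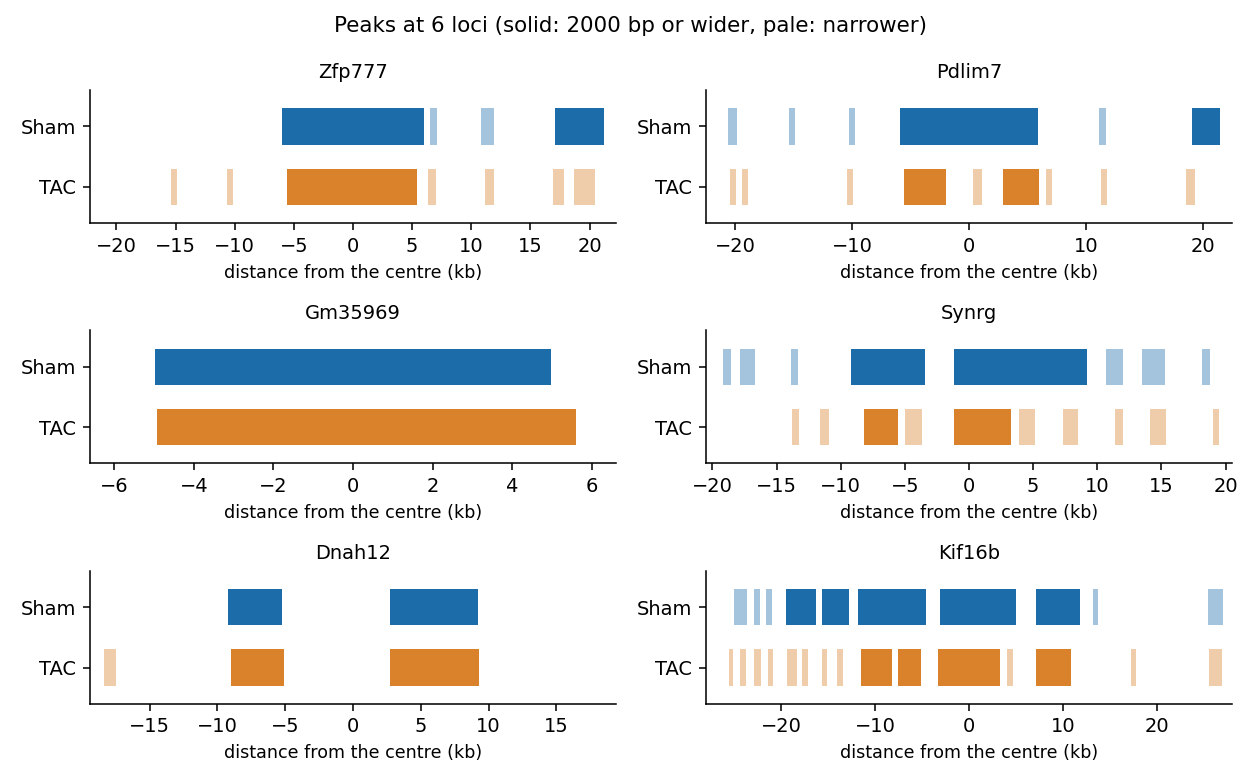
Peaks of both libraries around 6 shared broad loci, by distance from the centre of the locus (x axis, kb), with Sham above TAC, and peaks of 2000 bp or more solid and narrower ones pale. Zfp777, Gm35969 and Dnah12 on the left have 1 block of like width in each library for every shared broad peak, whereas 1 Sham block faces several TAC blocks over Pdlim7, Synrg and the neighbouring peaks of Kif16b on the right.

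The ratios furthest toward Sham were all in protein-coding genes. After Pdlim7 came Smyd3, a lysine methyltransferase (5875 bp in Sham, 2023 bp in TAC, 2.90-fold), Pald1, which encodes paladin (5439 bp, 2057 bp, 2.64-fold) and Plekhh1, a pleckstrin homology domain protein (7121 bp, 2725 bp, 2.61-fold). Itgav, the integrin alpha V chain (5463 bp, 2294 bp, 2.38-fold), and Tenm3, a teneurin of neural wiring (5499 bp, 2380 bp, 2.31-fold), followed. The Plekhh1 peak met 4 TAC peaks, the most of any shared broad peak.

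The 6 ratios furthest toward TAC were all outside genes. The largest was near the non-coding gene Gm40101, 10186 bp away, where 2479 bp in Sham faced 4770 bp in TAC (1.92-fold). Next were a peak 20449 bp from Msh6, a DNA mismatch repair gene (2021 bp and 3813 bp, 1.89-fold), and a peak 1768 bp from Gm46638, with the zinc finger gene Zfp236 as the nearest protein-coding gene (2209 bp and 4094 bp, 1.85-fold). Peaks near F830045P16Rik (2048 bp and 3632 bp), Gm33588 (2071 bp and 3219 bp) and Tmem242 (2088 bp and 3236 bp) followed, at 1.77-fold, 1.55-fold and 1.55-fold. Each of the 6 overlapped 1 TAC peak.

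Most loci past 1.5-fold toward Sham were places where the caller reported 1 region in Sham and several in TAC. At 401 of 449 loci the Sham peak overlapped 1 TAC peak, and there the median difference was -17 bp (-41 to 4 bp), with 8 loci past 1.5-fold on each side. At 48 loci it overlapped 2 or more, namely 2 at 40 loci, 3 at 7 and 4 at 1, and the median width was 4612 bp in Sham and 2610 bp in the paired TAC peak. These 48 held 34 of the 42 loci at which Sham was past the limit. A Sham peak that reaches over several TAC peaks and the gaps between them is nearly bound to be the wider one. It was so at 46 of the 48, so these counts describe the loci and are not a separate result. The 57 gaps between TAC peaks within a locus ran from 503 to 2444 bp, with a median of 622 bp, so many were little longer than the shortest gap the lists contain (499 bp). When the widths of all overlapping peaks were summed on both sides, an alternative chosen after seeing the data, 16 loci were past the limit toward Sham and 3 toward TAC, and the median difference stayed at -42 bp.

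The edges lay close together at most loci. Both ends lay within 100 bp of the Sham ends at 123 loci (27.4%) and within 500 bp at 337 loci (75.1%). At 48 loci 1 end lay within 100 bp and the other was over 500 bp away. TAC peaks covered a median of 95.3% of the Sham peak, from 34.4% to 100%. In the other direction, the paired TAC peak overlapped 2 or more Sham peaks at 15 loci.

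Width in Sham separated the loci. The 324 peaks under 3000 bp in Sham had a median difference of -0.5 bp, the 71 from 3000 bp to under 4000 bp had -336 bp, and the 54 of 4000 bp or more had -1716 bp with 27 past 1.5-fold toward Sham. Ordered by TAC width instead, the 27 peaks of 4000 bp or more in TAC had a median difference of +101 bp (-636 to 467 bp). For the 95 peaks of 3000 bp or more in TAC it was -2 bp (-70 to 87 bp). The lean toward Sham was thus seen in the ranking by Sham width and not in that by TAC width. No change with width is read from it.

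Genic and intergenic loci differed in these counts. By the peak midpoint 291 loci lay in an annotated gene and 158 outside. In genes, 35 of 291 (12.0%, 95% interval 8.52 to 16.3%) were at least 1.5 times wider in Sham and 1 was at least 1.5 times wider in TAC, at a median difference of -74 bp (-103 to -35 bp). Outside genes 7 of 158 (4.43%, 1.80 to 8.92%) were past the limit on each side, at -3 bp (-44 to 29 bp), with 79 wider in either library. The peak overlapped 2 or more TAC peaks at 39 of the genic loci (13.4%) and at 9 of the others (5.70%). The same lean was present in the lists as a whole: of all shared Sham peaks in genes 9.07% were past the limit toward Sham and 8.41% toward TAC, and outside genes 6.23% and 9.58%. The difference between genic and intergenic loci was not tested, because loci of 1 library are not replicates.

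**Figure D4:**
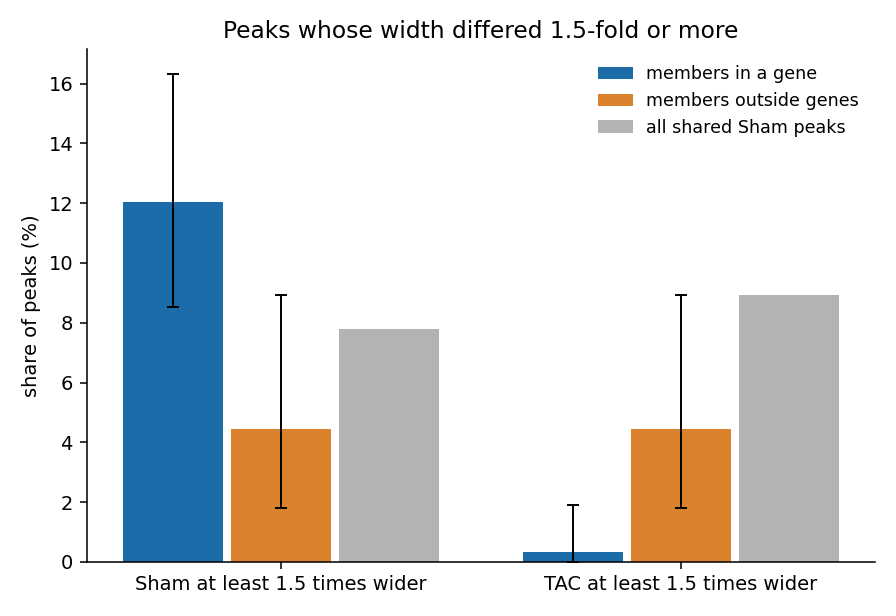
Share of peaks (y axis, %) whose width was at least 1.5 times larger in Sham (left) or in TAC (right), for shared broad peaks in genes (n = 291), shared broad peaks outside genes (n = 158) and all 88838 shared Sham peaks, with exact 95% intervals for counting error on the shared broad peaks. Genic loci show 12.0% toward Sham and 0.34% toward TAC, and intergenic loci 4.43% on both sides.

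Shared broad peaks lay in gene-rich DNA more often than Sham peaks at large, and broad Sham peaks that were not broad in TAC did so to a similar degree. The midpoint lay in a gene at 64.8% (60.2 to 69.2%), against 56.4% of all Sham peaks, 54.7% of narrower shared Sham peaks and 68.7% of the 889 other broad Sham peaks. A protein-coding gene held 248 midpoints (55.2%), a long non-coding RNA gene alone 41 (9.13%) and another kind of gene 2. The protein-coding share was 46.9% for all Sham peaks and 58.9% for the other broad Sham peaks. The long non-coding share was 8.59% and 9.34%, close to that of the shared broad peaks. Each chromosome was cut into fixed windows of 1 Mb. In 22.3% of cases (18.5 to 26.4%) the window that held the midpoint counted over 20 protein-coding genes. This was so for 12.5% of all Sham peaks and 20.9% of the other broad Sham peaks. Windows with no protein-coding gene held 16 shared broad peaks (3.56%), against 5.71% of all Sham peaks.

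Shared broad peaks came near gene starts more often than the average peak did, though broad peaks reach further by their size. Of the same 430 shared broad peaks, 36 (8.37%, 5.93 to 11.4%) came within 1000 bp of a start, against 3.55% of all Sham peaks and 6.49% of the other broad Sham peaks. Along the gene body the 203 midpoints with a known strand were spread over 5 equal stretches from start to end as 39, 41, 32, 47 and 44. Counted per peak, the protein-coding gene that held the midpoint had a median length of 87.6 kb for 248 shared broad peaks. It was 85.2 kb for the other broad Sham peaks and 118 kb for all Sham peaks in such genes. The annotation used gives gene bodies without exons, so exonic and intronic places were not separated.

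The loci were spread over 257 genes, 215 of them protein-coding and 40 of them long non-coding RNA genes, and 236 genes held a single one. The 9 genes with 3 or more, singled out after their values were seen, held 31 loci. Bcr held 5, with widths of 2057 to 9272 bp in Sham and 2015 to 7586 bp in TAC and none past 1.5-fold. Mad1l1, a spindle checkpoint gene, held 4, of which 1 was 5552 bp in Sham and 2447 bp in TAC and another was wider in TAC (2483 bp against 3697 bp). Zc3h3, a zinc finger gene of mRNA export, held 4, of which 2 were over 1.5 times wider in Sham (5607 bp against 2533 bp, and 4061 bp against 2012 bp) and 1 was 3623 bp in Sham and 3634 bp in TAC.

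In Kif16b, Smyd3, Itgav and Tnik, a kinase of the Wnt pathway, all 3 loci of each gene were narrower in TAC. The widths summed over a gene, with the paired TAC peaks alone, were 14423 bp in Sham and 7185 bp in TAC for Smyd3, 13075 bp and 7307 bp for Itgav, 12266 bp and 8093 bp for Tnik, and 19923 bp and 13544 bp for Kif16b. With every TAC peak counted, 9017 bp of the Sham peaks were covered in TAC for Smyd3, 7808 bp for Itgav, 9156 bp for Tnik and 16461 bp for Kif16b. Stim1, the calcium sensor of the endoplasmic reticulum that opens store-operated channels, had the larger sum of paired widths in TAC (6980 bp in Sham, 7853 bp in TAC), through 1 locus of 2231 bp in Sham and 3188 bp in TAC. Slc17a5, a lysosomal exporter of sialic acid, held 3 loci with 1 of them narrower by over 1.5-fold (4641 bp against 2214 bp).

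Loci that lay near each other were more often narrower in TAC. Joining loci with gaps of up to 50000 bp gave 404 groups, of which 375 were single, 29 had 2 or more loci and 10 had 3 or more. The 36 loci in groups of 3 or more had a median difference of -789 bp (-1552 to -96 bp) with 12 past 1.5-fold toward Sham and 0 toward TAC. The 375 single loci had -28 bp (-54 to -8 bp) with 22 and 8. Among single loci alone, the lean of genic loci was still there, with 19 of 235 past the limit toward Sham and 1 toward TAC in genes and 3 and 7 of 140 outside genes. Loci in groups were also wider in Sham, with a median of 3758 bp in groups of 3 or more against 2440 bp alone, and the part of width in this was not tested.

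Of the gene lists examined, that of zinc finger genes held the most shared broad peaks. With 456 genes it is also longer than every other list except that of olfactory and vomeronasal receptors (1456 genes). Zinc finger proteins of this kind bind DNA, and those with a repressor domain silence retroelements and imprinted alleles. They held 11 midpoints (2.45%, 1.23 to 4.34%), against 0.667% of all Sham peaks and 1.12% of the 889 other broad Sham peaks. After Zfp777 the widest were Zfp956, with the peak at chr6:47961631-47967024 (5394 bp in Sham, 2610 bp in TAC), and Zfp872 (3805 bp, 3593 bp). The others were Zfp282, Zbtb21, Zfp865, Zfp579, Zfp469, Zfp978 and a pair in Zfp618. Not all are separate places: Zfp579 and Zfp865 lie within 39.5 kb, and Zfp282, Zfp956 and Zfp777 lie close together on chromosome 6. The interval on the share counts each locus as independent. Of the 11, 9 were narrower in TAC and 2 wider, with 2 past 1.5-fold toward Sham, and the median difference was -212 bp (-1329 to 141 bp).

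Homeobox genes, which pattern the embryo, held 3 loci, all in the Zfhx family. Zfhx3, a transcription factor with both homeodomains and zinc fingers, had 5052 bp in Sham against 3140 bp in TAC and 3068 bp against 3031 bp, and Zfhx2 had 3324 bp against 3083 bp. Imprinted genes, expressed from 1 parental allele, held 3: Kcnk9, a background potassium channel (3002 bp, 2172 bp), Rasgrf1, an exchange factor for Ras (2219 bp, 3034 bp), and Gnas. Of these, Gnas had a shared broad peak at a CpG-dense start, the window printed above. Germline genes held 1, Sycp3. These shares, 0.668%, 0.668% and 0.223%, stood beside 0.335%, 0.208% and 0.0894% of all Sham peaks and 0.562%, 0.562% and 0.112% of the other broad Sham peaks, and with so few loci the intervals include both in each case.

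The list of 47 calcium handling and ion channel genes held 5 (1.11%, 0.363 to 2.58%), of which 4 were wider in TAC and none past 1.5-fold. The listed genes held 0.362% of all Sham peaks and 1.24% of the other broad Sham peaks. The list is not the whole class, and channel genes outside it also held shared broad peaks, among them Ryr1, Itpr3, Kcnma1 and Kcnj9. The 5 in the list were 3 loci in Stim1, 1 in Itpr2, the inositol trisphosphate receptor of cardiomyocytes (2033 bp, 2055 bp), and 1 in Hcn2, a pacemaker channel (2523 bp, 2544 bp). The list of cardiac transcription factor genes held 1 midpoint, in Tbx1, which acts in the outflow tract (2579 bp in Sham, 2071 bp in TAC). No midpoint lay in a gene of the lists for the sarcomere, hypertrophic signalling, the DNA methylation machinery, clustered protocadherins, olfactory and vomeronasal receptors, fibroblasts and matrix, endothelium, smooth muscle and pericytes, immune cells, or housekeeping. A count of 0 of 449 allows a share of up to 0.818%, which is above the share of all Sham peaks for each of these lists. The identity of the isolated cells was not checked, since peaks carry no expression values.

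Both libraries placed the shared broad peaks near the top of the authors' lists. The lists give no signal per peak, and the sources used here do not say what their order stands for. The median position was 0.960% from the top in Sham and 1.24% in TAC, with 407 and 388 of 449 in the first 5%. The other broad Sham peaks had a median position of 3.03% and the narrower shared Sham peaks one of 37.6%. Wide regions also hold more tags by their size, so the position is not independent of the rule.

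The chromosomes contributed from 9 loci (chromosome 19) to 35 (chromosome 4). Per 1000 Sham peaks this was 1.69 on chromosome 14, the lowest, and 4.48 on chromosome 17, the highest. The median ratio of TAC to Sham width ran from 0.938 on chromosome 11 to 1.01 on chromosome 16.

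Most broad peaks of either library were not broad in the other. Of the 1338 broad Sham peaks, 848 overlapped narrower TAC peaks alone, 355 of them more than 1, and 41 overlapped none. Of the 1010 broad TAC peaks, 451 overlapped a broad Sham peak, 535 narrower ones and 24 none. Broad peaks were 0.996% of Sham peaks and 0.634% of TAC peaks. The TAC library had more total tags (14658177 against 12585289) and more peaks (159304 against 134294 on these chromosomes). The part of depth in the share of broad peaks was not tested.

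The lower limit on width cut through a continuum. Just inside it, by the smaller of both widths, were loci at Gm13172 (2000 bp in Sham, 2422 bp in TAC), Gm42016 (2000 bp, 2007 bp) and 2310008N11Rik (2001 bp, 2905 bp). Just outside were loci at Abcc10, a drug transporter (2138 bp, 1998 bp), Ski, a co-repressor of TGF-beta signalling (2130 bp, 1998 bp), and Spon1, a matrix protein of axon guidance (2233 bp, 1997 bp).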

How the data were processed

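Methylated DNA immunoprecipitation and sequencing was done in 2 groups, Sham and TAC, with 1 library each and an Input library as background. Antibody enrichment and library work were done by Active Motif, per the labels' protocols. The submitters' processing notes name BWA 0.7.4-r385, Picard, HOMER 4.5 and build mm10. Each library had its own peak call against Input, with peak size 500 bp, minimum distance between peaks 1000 bp, at least 4-fold over Input and a Poisson threshold over Input of 1e-04, per the file headers. The Sham library had 12585289 total tags and the TAC library 14658177, with tag thresholds of 11 and 12, per the file headers, and no depth per peak is given. The authors deposited start and end positions for each peak and a score that is 1 in every row, so peak height was not analysed here.

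Widths, overlaps (at least 1 bp), genes at the midpoint, gene starts and promoter windows were computed in python 3.11.15 with pandas 2.3.3, numpy 2.4.6 and scipy 1.17.1, and the code was tested on simulated data. Each Sham peak was paired with the TAC peak of largest overlap. Shares have exact Clopper-Pearson 95% intervals, and medians have exact intervals from order statistics. Genes and 250-base windows came from RefSeq (GRCm38.p6, the assembly of mm10), and chromosome 18 was left out of gene-start shares because no start windows were used there. Genes named are those of the 10 widest loci, the 6 largest and 6 smallest width ratios, the 3 widest per gene list, the 5 with most CpG in a promoter window, and the 3 loci on either side of the width limit. Any other gene named was chosen after its values were seen. The members and the gene lists were chosen with earlier results of these data known. Alternatives covered the width limit, the overlap, the pairing, the fold limit, scaling and the gene assignment.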

Additional observations from a re-analysis of the deposited data

Results flagged for a closer look

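The rule covered chromosomes 1 to 19, and the sex chromosomes carry the same kind of peak. On chromosome X 21 broad Sham peaks overlapped a broad TAC peak, out of 27 broad Sham and 33 broad TAC peaks, and 11 of the 21 were narrower in TAC and 10 wider. They were picked out because they lie in data that no comparison above used, and the lists hold no control library to set them against. The widest of them was 20102 bp in Sham and 20573 bp in TAC, wider than any of the 449 autosomal loci. On chromosome Y 3 of 3 broad Sham peaks overlapped a broad TAC peak. These counts were not tested.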

How the results depend on the processing

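With 1 library per group, leaving out a replicate was not possible. No paired analysis was possible because each group has 1 library and the labels give no replicate numbers. Of 55 alternatives computed, 40 left the value within its interval or within 1.5 times the count. Most of those 40 were shares of the gene lists under another gene assignment, many of them for lists without any midpoint. Outside the gene lists, most alternatives moved the value. With the limit at 1500 bp there were 1577 shared broad peaks, 53 past 1.5-fold toward TAC and 120 toward Sham. At 3000 bp there were 72, with 0 and 8, and a median difference of -80.5 bp. A lower fold limit, midway between 1 and 1.5, gave 22 toward TAC and 64 toward Sham, and a limit of 2 gave 0 and 17. Summing the widths of all overlapping peaks, chosen after seeing the data, gave 3 and 16. The share within reach of a gene start was 4.65% at 500 bp and 11.9% at 2000 bp. Other limits on width, fold or distance change by their construction how many loci can qualify. The median ratio of all shared pairs was 1.0, so scaling by it could change no width and tests nothing. The share in genes and the share of each gene list stayed within their intervals. Peak depth is not given, so no locus has a counting error of its own.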
